A study of Rattus norvegicus with 25 samples.

Results

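The genes described are 9 immediate early genes, namely Fos, Fosb, Jun, Junb, Egr1, Ier2, Ier3, Atf3 and Myc, together with Dusp1. They were taken by name, each through the RefSeq accession of its array probe, from rat esophageal epithelium profiled on 25 one-colour arrays. All 10 had a named probe among the 15443 named genes on the array, and 9 of the 10 entered the 12343 genes tested. Fosb did not: it was well above background on 2 of 25 arrays (1 of NMBA+Alpha-T and 1 of Control).

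The rats were male F344 animals, 5 per group. In the groups called NMBA+Alpha-T, NMBA+Delta-T and NMBA+Gamma enriched-T, animals had N-nitrosomethylbenzylamine (NMBA), a nitrosamine that causes esophageal tumours in rats, and an intervention with alpha-tocopherol, delta-tocopherol or a gamma-enriched tocopherol preparation. The NMBA group had the carcinogen with normal diet, and the Control group had normal diet and no NMBA. Tocopherols are forms of vitamin E; alpha-tocopherol carries the most methyl groups on its chromanol ring, gamma-tocopherol fewer and delta-tocopherol the fewest. The sources used here state no dose, route, time or age, so whether the doses of the tocopherols match is unknown.

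Immediate early genes are transcribed within minutes of a growth factor, stress or injury signal, without new protein synthesis, because the factors that switch them on are already present in the cell and are phosphorylated by mitogen-activated protein (MAP) kinases. Fos and Jun proteins pair to form the AP-1 transcription factor, Egr1 is a zinc-finger factor, and the messages are short-lived. Dusp1 encodes a nuclear phosphatase that removes phosphate from the MAP kinases p38, JNK and ERK and so closes the circuit that induced it. In squamous epithelium these genes respond to wounding and to handling of the tissue, and AP-1 factors also act in keratinocyte differentiation.

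Levels are log2 of the processed signal over the 75th percentile of the same array, so 0 is the level of that percentile and each unit is a doubling. Between 70.6% and 79.8% of spots per array were well above background, and no spot was saturated on any array (0 spots). Arrays lay on 4 slides: slide 1 held NMBA+Alpha-T rats 1 to 5 and NMBA+Delta-T rats 1 to 3, slide 2 held NMBA+Delta-T rats 4 and 5, NMBA+Gamma enriched-T rats 1 to 5 and Control rat 1, slide 3 held NMBA rats 1 to 4 and Control rats 2 to 5, and slide 4 held NMBA rat 5. The squamous epithelium markers (Krt5, Krt14, Krt13, Tp63 and 5 others) were all tested, and their summed level ran from 84.6 to 171 times the 75th percentile on the 25 arrays. Markers of other tissue were also high: summed levels ran from 17.3 to 78.1 for skeletal muscle, 18.5 to 59.9 for smooth muscle and 26.2 to 91.8 for fibroblasts. The RNA thus did not come from epithelium alone, and the part of muscle and stroma in the members' values was not tested. Nothing in the labels says whether the rats of a group were housed or dissected separately. In bulk tissue, fewer cells of a type and less RNA per cell cannot be told apart.

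Promoter sequence was read for the members that RefSeq's GRCr8 table holds, which were Dusp1, Egr1, Ier2, Junb and Fosb (5 of 10). The letters searched, on both strands of the 250 bases before the annotated start, were the CArG box bound by serum response factor, TGACGTCA and its core TGACG (the cyclic AMP response element, CRE, with the core also counted inside the full site), TGANTCA (the AP-1 site), GCGGGGGCG (the Egr1 site) and GGGCGG (the GC box). The sequences of Dusp1, Egr1 and Ier2 are shown because the results below turn on these genes. Capitals mark CArG boxes and CRE letters (CGTCA is TGACG on the other strand), and each runs 5′ to 3′ on the gene's own strand in build GRCr8.
Dusp1, chr10:17184603-17184852, plus strand: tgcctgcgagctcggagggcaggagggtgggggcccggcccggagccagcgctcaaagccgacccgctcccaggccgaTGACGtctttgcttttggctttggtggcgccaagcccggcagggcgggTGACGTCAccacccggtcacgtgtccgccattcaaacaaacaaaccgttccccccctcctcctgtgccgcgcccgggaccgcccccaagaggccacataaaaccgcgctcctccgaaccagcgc
Egr1, chr18:26736828-26737077, plus strand: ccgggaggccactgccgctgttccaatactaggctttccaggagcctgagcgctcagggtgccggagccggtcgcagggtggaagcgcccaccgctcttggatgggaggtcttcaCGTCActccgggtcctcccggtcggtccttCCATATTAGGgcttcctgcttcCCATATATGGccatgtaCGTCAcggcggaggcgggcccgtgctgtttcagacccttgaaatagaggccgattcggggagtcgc
Ier2, chr19:40399123-40399372, plus strand: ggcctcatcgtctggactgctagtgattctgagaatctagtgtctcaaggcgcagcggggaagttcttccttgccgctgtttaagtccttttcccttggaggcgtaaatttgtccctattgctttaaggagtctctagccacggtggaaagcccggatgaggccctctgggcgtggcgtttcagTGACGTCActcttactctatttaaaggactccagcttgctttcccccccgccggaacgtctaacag

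Egr1 held 2 CArG boxes, 105 to 96 and 83 to 74 bases before its start, and 2 CRE cores; 1.497% of all 33469 promoters in the table hold a CArG box in a window of this length. Dusp1 held the full TGACGTCA 124 to 117 bases before its start, another core 172 to 168 bases before it, and 2 GC boxes. Ier2 held TGACGTCA 66 to 59 bases before its start. Of all promoters, 1.59% hold TGACGTCA, 18.2% the core and 30.5% the GC box. Junb held 1 core, 155 to 151 bases before its start, and the searched letters were not in the Fosb window. TGANTCA (6.34% of promoters) and GCGGGGGCG (2.45%) matched none of the 5 windows.

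**Figure D1:**
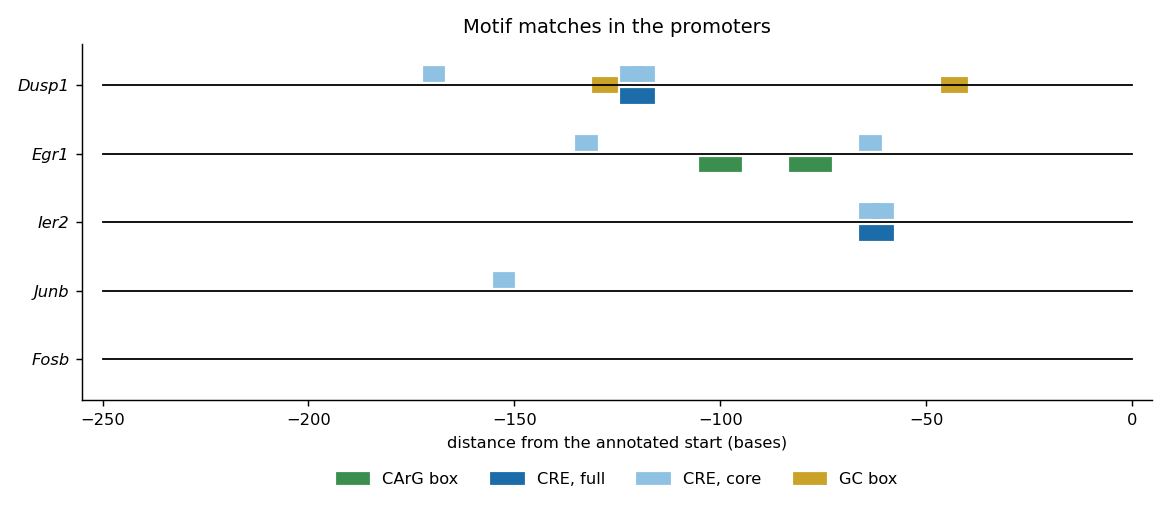
Motif matches in the 250 bases before the annotated start of 5 members (x axis, distance from the start in bases; 1 line per gene). Boxes are letter matches on either strand: Egr1 has 2 CArG boxes, Dusp1 and Ier2 each have 1 full CRE, and the Fosb window has no match.

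Dusp1 was higher in NMBA+Alpha-T rats than in NMBA rats and was the only member past the test in any comparison with NMBA. Its level was -1.06, -0.89, -1.06, -0.71 and -0.19 in NMBA+Alpha-T rats 1 to 5, against -1.42, -1.18, -1.63, -1.99 and -1.54 in NMBA rats 1 to 5. The 2 sets of 5 values do not overlap. The difference was 0.77 ± 0.20 log2 (SE, n = 5 rats per group), or 1.71-fold, with limma's adjusted p = 0.0369. That is 1 of 9 tested members, where 3.82% of all genes tested passed. Against Control the difference was 0.93 ± 0.20 log2, 1.90-fold (adjusted p = 0.0311), in a comparison where 0.818% of genes passed; the Control rats stood at -1.67, -1.44, -1.80, -1.96 and -1.67, below every NMBA+Alpha-T rat.

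The Dusp1 call depends on the slide and on single rats. Every NMBA+Alpha-T array lay on slide 1 and no NMBA or Control array did. With slide as a fixed block, the differences were 0.20 ± 0.51 log2 from NMBA (adjusted p = 0.886) and 0.36 ± 0.46 from Control (adjusted p = 0.715). In that fit 1 gene of 12343 passed for NMBA+Alpha-T against NMBA, since these groups share no slide and are linked only through other groups' arrays. Slide as a random block kept the call (0.79, adjusted p = 0.0156). The slide correlation estimated in that fit was -0.031, so the fit took out no difference between slides and cannot tell slide from group. There 800 genes passed for this comparison, against 471 without the block. Leaving out NMBA+Alpha-T rat 2, 4 or 5, or NMBA rat 1, 3, 4 or 5, one at a time, left differences from 0.62 to 0.80 with adjusted p from 0.0543 to 0.0917. Against Control, leaving out NMBA+Alpha-T rat 4 or 5, or Control rat 3, 4 or 5, left 0.78 to 0.94 with adjusted p from 0.0658 to 0.112. Over 23 alternatives, the difference from NMBA stayed positive between 0.20 and 0.86 and passed in 12, with adjusted p from 0.0155 to 0.886. The difference from Control lay between 0.36 and 0.996 and passed in 15 of 23, with adjusted p from 0.0120 to 0.715.

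The other tocopherol groups did not share the high Dusp1 level. NMBA+Delta-T rats 1 to 5 stood at -0.96, -1.50, -1.60, -2.09 and -1.68, and NMBA+Gamma enriched-T rats 1 to 5 at -1.72, -1.60, -2.40, -2.20 and -1.89. The highest NMBA+Delta-T rat lay within the range of NMBA+Alpha-T, while every NMBA+Gamma enriched-T rat lay below it. NMBA+Gamma enriched-T was lower than NMBA+Alpha-T by a difference of -1.18 ± 0.20 log2, 2.27-fold (adjusted p = 0.00992), in a comparison where 1.62% of genes passed. Leaving out any 1 rat kept that call; with slide as a fixed block the difference was -0.65 ± 0.36 (adjusted p = 0.660), and over 23 alternatives it ran from -1.27 to -0.65, passing in 21, with adjusted p from 0.00186 to 0.660.

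NMBA+Delta-T against NMBA+Alpha-T gave -0.78 ± 0.20 log2 for Dusp1, with a 95% interval from -1.20 to -0.36, and adjusted p = 0.833. The unadjusted p was 8.58e-04, and in that comparison 0 of 12343 genes (0%) passed by limma, with 571 genes at an unadjusted p under 0.05. The difference was not called, although its own interval does not include 0. On slide 1, which held all 5 NMBA+Alpha-T arrays and 3 of NMBA+Delta-T, the same difference was -0.57 ± 0.25. By group means the order of Dusp1 was NMBA+Alpha-T (-0.78), NMBA (-1.55), NMBA+Delta-T (-1.56), Control (-1.71) and NMBA+Gamma enriched-T (-1.96). Below NMBA+Alpha-T no neighbours in this order differed past the test: NMBA+Delta-T against NMBA was -0.01 (95% interval -0.43 to 0.41), NMBA+Delta-T against Control 0.14 (-0.28 to 0.57) and NMBA+Gamma enriched-T against Control -0.26 (-0.68 to 0.17).

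**Figure D2:**
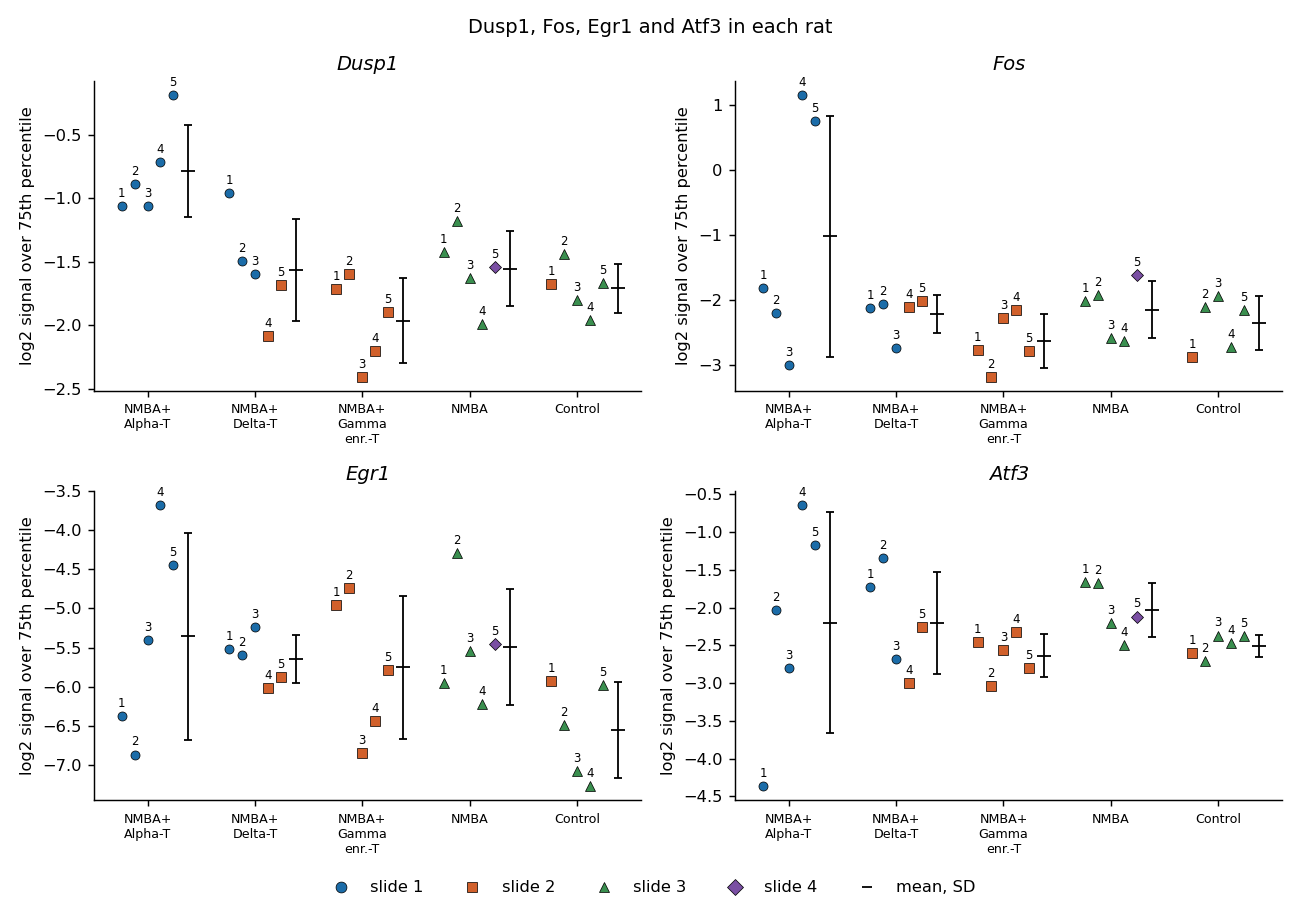
Levels of Dusp1, Fos, Egr1 and Atf3 in each of 25 rats (y axis, log2 signal over the array's 75th percentile; numbers are rat numbers, marker shape is the slide, bars are mean and SD of 5 rats). NMBA+Alpha-T rats 4 and 5 stand above all other rats for Fos, at 1.15 and 0.75, while the Dusp1 values of that group, from -1.06 to -0.19, lie above all NMBA and Control rats.

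Fos, the AP-1 subunit that is near silent in resting cells of most tissues, was very high in a pair of rats. Its level was -1.81, -2.21, -2.99, 1.15 and 0.75 in NMBA+Alpha-T rats 1 to 5, -2.12, -2.07, -2.73, -2.11 and -2.02 in NMBA+Delta-T rats and -2.76, -3.18, -2.27, -2.15 and -2.79 in NMBA+Gamma enriched-T rats. NMBA rats stood at -2.01, -1.92, -2.58, -2.62 and -1.61, and Control rats at -2.87, -2.10, -1.94, -2.71 and -2.15. NMBA+Alpha-T rats 1 to 3 therefore lay among the other groups, and rats 4 and 5 lay apart.

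These 2 rats were singled out after the values were seen, from Fos itself. The lower of them stood 2.36 log2 above the highest of the other 23 rats. Of 12343 genes tested, 94 had both rats above all others, and 1, Fos, by more than 1 log2. The SD of Fos within groups was 0.90 log2, larger than for 96.4% of genes, with a median over genes of 0.33. By group it was 1.85 in NMBA+Alpha-T and 0.29 to 0.44 in the others. The fit shares 1 spread over all groups, so the SE of comparisons without NMBA+Alpha-T holds these rats too. With that spread, the group difference did not pass: NMBA+Alpha-T minus NMBA was 1.13 ± 0.54 log2 (95% interval 0.02 to 2.23, adjusted p = 0.260), and minus Control 1.33 ± 0.54 (adjusted p = 0.265). NMBA+Gamma enriched-T minus NMBA+Alpha-T was -1.61 ± 0.54 (adjusted p = 0.152); without NMBA+Alpha-T rat 3 it was -2.10 and passed (adjusted p = 0.0352), and over 23 alternatives its adjusted p ran from 0.0352 to 0.660.

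Atf3, a stress-induced member of the ATF/CREB family that can pair with Jun, was also highest in these 2 rats. Its level was -4.36, -2.03, -2.80, -0.63 and -1.17 in NMBA+Alpha-T rats 1 to 5, and ran from -2.99 to -1.34 in NMBA+Delta-T rats and from -3.04 to -2.32 in NMBA+Gamma enriched-T rats. NMBA rats stood at -1.66, -1.68, -2.21, -2.49 and -2.12, and Control rats at -2.60, -2.71, -2.37, -2.47 and -2.37. Rats 4 and 5 of NMBA+Alpha-T lay 0.17 log2 or more above the other 23, and rat 1 of the same group was the lowest of all 25. The groups overlapped in every comparison, and NMBA+Alpha-T minus NMBA was -0.17 ± 0.45 log2 (adjusted p = 0.886). The SD of Atf3 was 1.46 in NMBA+Alpha-T and 0.15 to 0.68 in the other groups.

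Egr1, the zinc-finger factor with the 2 CArG boxes shown above, was well above background on 22 of 25 arrays (5 of NMBA+Alpha-T, 5 of NMBA+Delta-T, 4 of NMBA+Gamma enriched-T, 5 of NMBA and 3 of Control). Its level was -6.37, -6.86, -5.41, -3.67 and -4.44 in NMBA+Alpha-T rats 1 to 5, and lay between -6.01 and -5.24 in NMBA+Delta-T rats and between -6.84 and -4.74 in NMBA+Gamma enriched-T rats. NMBA rats stood at -5.95, -4.29, -5.55, -6.22 and -5.46, and Control rats at -5.93, -6.48, -7.08, -7.27 and -5.98. NMBA+Alpha-T rat 4 was the highest, but NMBA rat 2 lay above NMBA+Alpha-T rat 5. The SD within groups was 0.85 log2, larger than for 95.4% of genes, and no comparison passed; the largest differences were 1.20 ± 0.50 for NMBA+Alpha-T minus Control (adjusted p = 0.290) and 1.06 ± 0.50 for NMBA minus Control (adjusted p = 0.384).

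NMBA+Alpha-T rats 4 and 5 were unlike each other in other cell types' markers. In rat 4 the summed level of 7 macrophage genes was 12.8 times the 75th percentile, against 24.8 to 34.3 in the other NMBA+Alpha-T rats, and that of 7 fibroblast genes was 39.1, against 61.8 to 82.5. In rat 5 these sums were 31.0 and 71.8, within the range of rats 1 to 3. The part of these markers in the Fos values was not tested. Without both rats, the Dusp1 difference was 0.55 ± 0.22 log2 from NMBA (adjusted p = 0.246), 0.70 ± 0.22 from Control (adjusted p = 0.212) and, for NMBA+Gamma enriched-T minus NMBA+Alpha-T, -0.96 ± 0.22 (adjusted p = 0.0558), so the Dusp1 calls ended but their direction did not turn.

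Ier2 and Ier3 showed another pattern: by group mean they were highest in NMBA rats, and the tocopherol groups differed from Control by -0.03 to 0.01 log2 for Ier2 and by -0.18 to -0.08 for Ier3. The pattern was not theirs alone, since Junb, Myc and Atf3 were also highest in NMBA rats by group mean. Their tocopherol groups differed from Control by -0.10 to -0.02 for Junb, 0.11 to 0.26 for Myc and -0.13 to 0.31 for Atf3. Ier2 encodes a short-lived nuclear regulator of transcription, and Ier3 a stress-induced protein that affects cell survival. Ier2 stood at 1.47, 1.39, 1.39, 1.45 and 1.23 in NMBA+Alpha-T rats 1 to 5, 1.42, 1.31, 1.11, 1.40 and 1.49 in NMBA+Delta-T rats and 1.38, 1.08, 1.65, 1.40 and 1.40 in NMBA+Gamma enriched-T rats. NMBA rats 1 to 5 were at 1.68, 1.72, 1.70, 1.46 and 2.005, and Control rats at 1.27, 1.37, 1.37, 1.35 and 1.50. The lowest NMBA rat overlapped the other groups and the other 4 lay above every rat of them.

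None of the Ier2 differences passed the test. NMBA+Alpha-T minus NMBA was -0.33 ± 0.11 log2 (adjusted p = 0.109), NMBA+Delta-T minus NMBA -0.37 ± 0.11 (adjusted p = 0.0720) and NMBA+Gamma enriched-T minus NMBA -0.33 ± 0.11 (adjusted p = 0.0663). NMBA minus Control was 0.34 ± 0.11 (adjusted p = 0.168). These 4 comparisons share the NMBA rats. With the array column as a block, a choice made after seeing the data, all 3 differences from NMBA passed (adjusted p = 0.0452, 0.0302 and 0.0378 in the same order), and without NMBA rat 4 those of NMBA+Delta-T and NMBA+Gamma enriched-T passed (-0.43, adjusted p = 0.0367, and -0.39, adjusted p = 0.0292). Leaving out NMBA+Gamma enriched-T rat 3 also let that group's difference pass (-0.40, adjusted p = 0.0267). Over the alternatives, adjusted p ran from 0.0452 to 0.954 for NMBA+Alpha-T, from 0.0302 to 0.940 for NMBA+Delta-T and from 0.0267 to 0.998 for NMBA+Gamma enriched-T, the high ends with slide as a fixed block.

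Ier3 stood at 0.49, 0.56, 0.93, 0.60 and 0.56 in NMBA+Alpha-T rats 1 to 5, 0.57, 0.61, 0.70, 0.24 and 0.50 in NMBA+Delta-T rats and 0.77, 0.38, 0.80, 0.57 and 0.54 in NMBA+Gamma enriched-T rats. NMBA rats were at 0.92, 1.25, 0.97, 0.76 and 0.96, and Control rats at 0.94, 0.53, 0.48, 1.02 and 0.56. Every NMBA+Delta-T rat lay below every NMBA rat, and the other groups overlapped NMBA. The difference from NMBA was -0.34 ± 0.13 log2 in NMBA+Alpha-T (adjusted p = 0.151), -0.45 ± 0.13 in NMBA+Delta-T (adjusted p = 0.0620) and -0.36 ± 0.13 in NMBA+Gamma enriched-T (adjusted p = 0.0869). That of NMBA+Delta-T passed in 6 of 22 alternatives, among them without NMBA rat 4 (-0.50, adjusted p = 0.0421), with adjusted p from 0.0259 to 0.663.

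**Figure D3:**
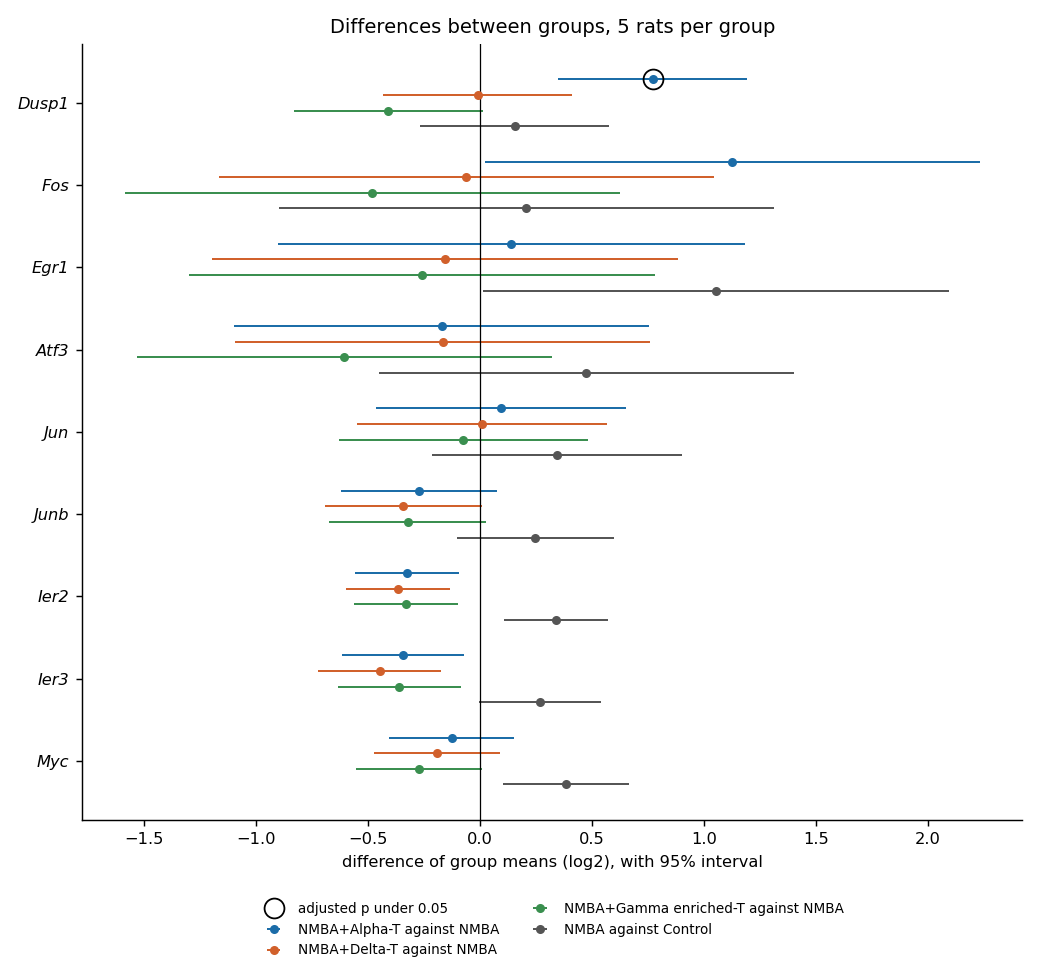
Differences of group means for the 9 tested members (x axis, log2; points are limma estimates with 95% intervals, 5 rats per group). The circle marks the comparison past the test, Dusp1 in NMBA+Alpha-T against NMBA at 0.77. Ier2, Ier3, Junb, Myc and Atf3 lie below 0 in all tocopherol groups and above 0 for NMBA against Control.

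T-cell markers moved with the same groups as Ier2 and Ier3. The summed level of 9 T-cell genes was 0.51 to 1.17 in NMBA+Alpha-T, 0.53 to 1.22 in NMBA+Delta-T, 0.43 to 0.89 in NMBA+Gamma enriched-T, 1.06 to 3.97 in NMBA and 0.54 to 1.06 in Control rats. Of these 9, 6 passed as higher in NMBA than in Control, and 6, 7 and 7 as lower in NMBA+Alpha-T, NMBA+Delta-T and NMBA+Gamma enriched-T than in NMBA. Of all genes, 1.55%, 3.82%, 2.49% and 8.95% passed in these comparisons, shares that also apply to the epithelial counts below. Cd8b, counted in each, was well above background on 5 of 5 NMBA arrays, 4 of 5 NMBA+Alpha-T, 2 of 5 NMBA+Delta-T, 2 of 5 NMBA+Gamma enriched-T and 1 of 5 Control arrays. NMBA rat 4, lowest of its group for Ier2 and Ier3, was also lowest for the T-cell sum (1.06), and NMBA rat 5, highest for Ier2, was highest for it (3.97). For Ier3 the highest NMBA rat was rat 2. Squamous epithelium markers were also lower against NMBA in part: 1 of 9 in NMBA+Alpha-T (Krt5, -0.58 ± 0.15, adjusted p = 0.0331), 1 of 9 in NMBA+Delta-T (Krt4, -0.69 ± 0.15, adjusted p = 0.0283) and 3 of 9 in NMBA+Gamma enriched-T (Krt4, Krt13 and Krt14, -0.81 to -0.74), and 0 of 9 passed in NMBA against Control, with 3 at an unadjusted p under 0.05. Their summed level was 108 to 152 in NMBA+Alpha-T, 95.5 to 123 in NMBA+Delta-T, 84.6 to 149 in NMBA+Gamma enriched-T, 135 to 171 in NMBA and 96.3 to 161 in Control rats. The part of T cells and of epithelial content in the Ier2 and Ier3 values was not tested.

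NMBA against Control asked how the carcinogen alone was associated with these genes, and no member passed (0 of 9; 1.55% of all genes tested did, by limma), with 3 at an unadjusted p under 0.05. All 9 differences were above 0, with a median of 0.34 log2, where 7090 of 12343 genes were above 0 with a median of 0.05. Myc, which encodes a growth-promoting transcription factor, stood at 1.28, 1.50, 0.84, 1.06 and 1.31 in NMBA rats, against 0.90, 0.80, 0.60, 1.02 and 0.77 in Control rats. The groups overlapped, and the difference was 0.38 ± 0.14 log2 (adjusted p = 0.206). Junb, an AP-1 subunit, differed by 0.25 ± 0.17 (adjusted p = 0.570), Jun by 0.34 ± 0.27 (adjusted p = 0.626), Atf3 by 0.47 ± 0.45 (adjusted p = 0.693), Fos by 0.21 ± 0.54 (adjusted p = 0.902) and Ier3 by 0.27 ± 0.13 (adjusted p = 0.402). The SEs of Atf3 and Fos hold the wide spread of the NMBA+Alpha-T rats, which are not in this comparison. On slide 3, which held 4 rats of each group, Dusp1 differed by 0.16 ± 0.19 log2 (adjusted p = 0.835), close to the 0.15 ± 0.20 over all rats.

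In NMBA+Delta-T against NMBA, 0 of 9 members passed, by limma, where 2.49% of genes did, and 2 had an unadjusted p under 0.05. In NMBA+Gamma enriched-T against NMBA, 0 of 9 passed where 8.95% of genes did, again with 2 at an unadjusted p under 0.05. All 9 differences of NMBA+Gamma enriched-T were below 0, with a median of -0.33 log2. Over all genes the median was -0.10, so most genes tested were below 0 there as well. This comparison shares its NMBA rats with NMBA against Control, where all 9 were above 0, so the counts are not separate results. Myc in NMBA+Gamma enriched-T rats was 0.81, 1.13, 0.98, 0.95 and 0.76, a difference of -0.27 ± 0.14 from NMBA (adjusted p = 0.202). Junb differed from NMBA by -0.27 ± 0.17 in NMBA+Alpha-T, -0.34 ± 0.17 in NMBA+Delta-T and -0.32 ± 0.17 in NMBA+Gamma enriched-T (adjusted p = 0.414, 0.259 and 0.228).

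Set against Control, NMBA+Delta-T and NMBA+Gamma enriched-T had no member past the test (0 of 9 each by limma, where 0.194% and 0.632% of genes passed) and none at an unadjusted p under 0.05 (0 of 9 each). Between the tocopherol groups, Ier2 differed by -0.04 ± 0.11 log2 for NMBA+Delta-T minus NMBA+Alpha-T (95% interval -0.27 to 0.19) and by -0.004 ± 0.113 for NMBA+Gamma enriched-T minus NMBA+Alpha-T (-0.24 to 0.23). Ier3 differed by -0.10 ± 0.13 (-0.38 to 0.17) and -0.02 ± 0.13 (-0.29 to 0.26) in the same comparisons. NMBA+Gamma enriched-T minus NMBA+Delta-T, where 0 of 9 members and 0 of 12343 genes (0%) passed by limma and 503 genes had an unadjusted p under 0.05, gave 0.04 ± 0.11 for Ier2 and -0.40 ± 0.20 (-0.82 to 0.02) for Dusp1. Dusp1 was the only member past the test between tocopherol groups, and only in NMBA+Gamma enriched-T against NMBA+Alpha-T. Those groups lay on slides 2 and 1, so preparation and slide cannot be told apart there. The call ended with slide as a fixed block in limma (adjusted p = 0.660).

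**Figure D4:**
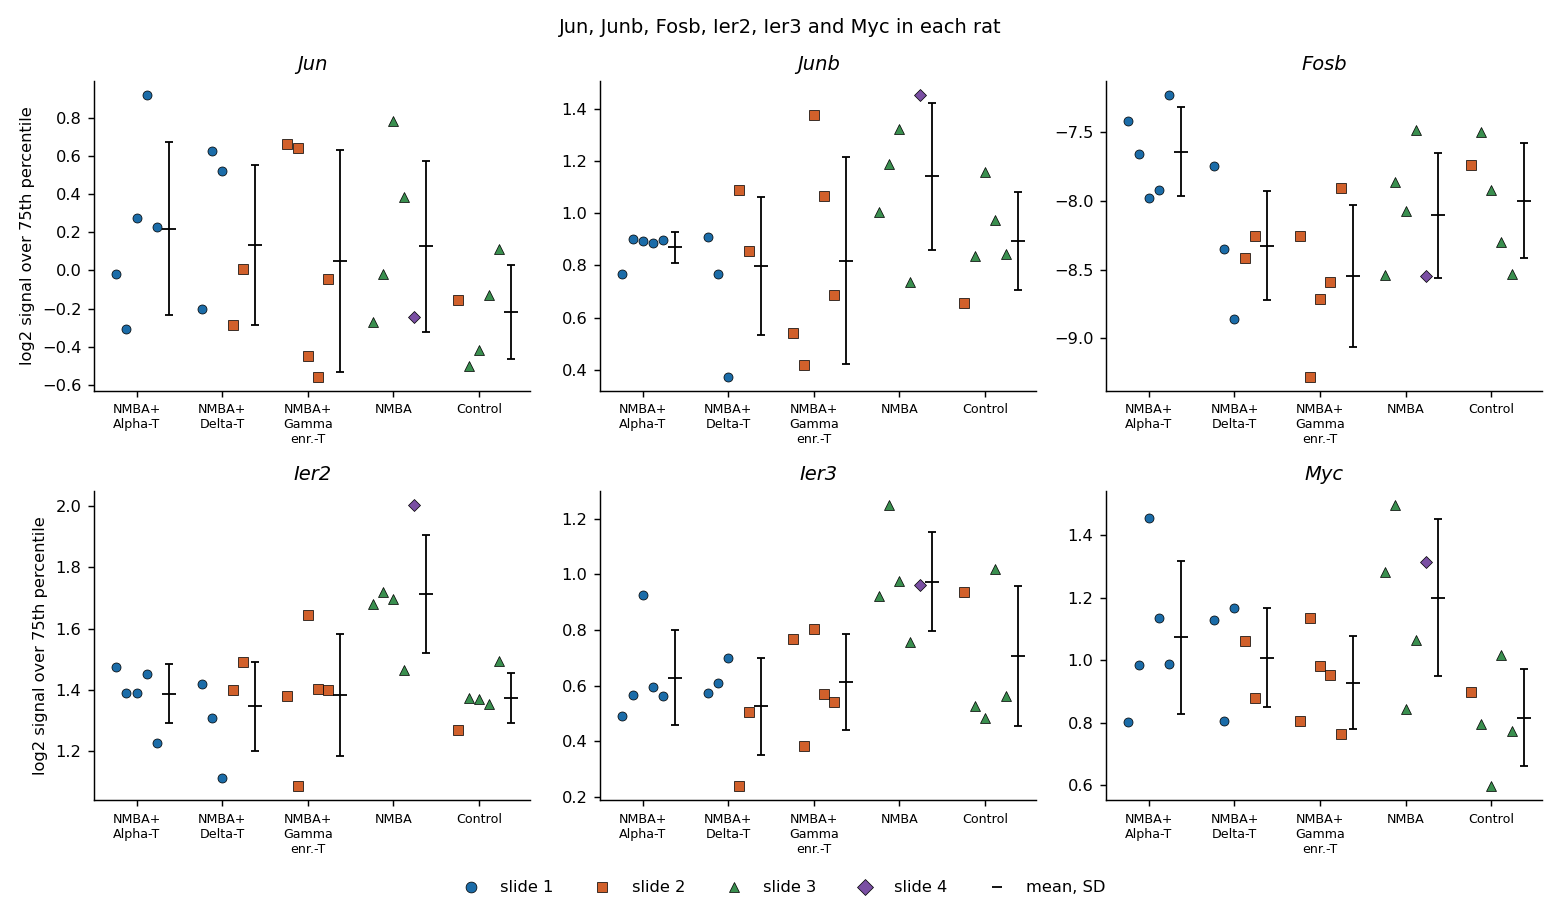
Levels of Jun, Junb, Fosb, Ier2, Ier3 and Myc in each of 25 rats (y axis, log2 signal over the array's 75th percentile, with its own range in each panel; marker shape is the slide, bars are mean and SD of 5 rats). Ier2 runs from 1.46 to 2.005 in NMBA rats and from 1.08 to 1.65 in the tocopherol groups; Fosb, between -9.28 and -7.23, was well above background on 2 arrays.

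Jun, the main partner of Fos in AP-1, did not follow the groups. Its level was -0.02, -0.31, 0.28, 0.92 and 0.23 in NMBA+Alpha-T rats, -0.20, 0.63, 0.52, -0.29 and 0.01 in NMBA+Delta-T rats, 0.67, 0.64, -0.45, -0.56 and -0.04 in NMBA+Gamma enriched-T rats, -0.27, -0.02, 0.78, 0.38 and -0.24 in NMBA rats and -0.15, -0.50, -0.42, -0.13 and 0.11 in Control rats. All 5 groups overlap. It followed the column of the array on its slide: the mean deviation from the group mean was -0.31, -0.32, 0.30 and 0.39 log2 in columns 1 to 4, and column passed limma's F test beside the groups (adjusted p = 5.36e-04). This was a test chosen after seeing the data, and 30.7% of all genes tested passed it. Of the other members, Junb came nearest, with deviations of 0.13, 0.13, -0.03 and -0.25 (adjusted p = 0.0533), and Dusp1 had deviations from -0.04 to 0.07 (adjusted p = 0.950). With array column as a block, Dusp1 against NMBA in NMBA+Alpha-T remained 0.77 (adjusted p = 0.0317).

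**Figure D5:**
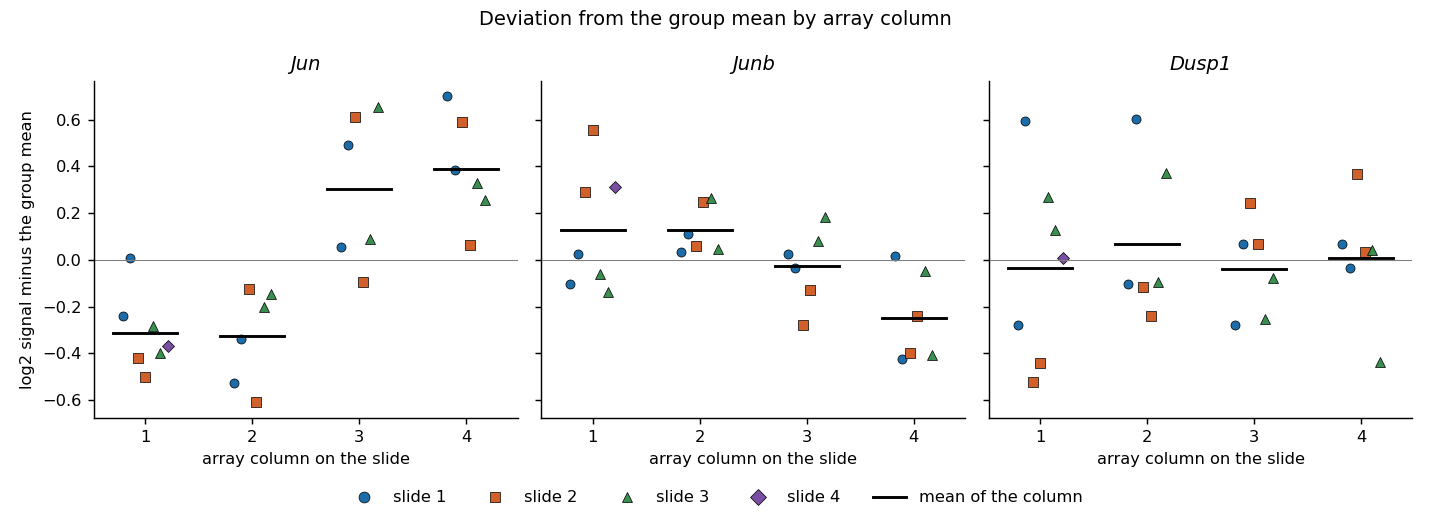
Deviation of Jun, Junb and Dusp1 from the group mean (y axis, log2) by the column of the array on its slide (x axis; each point is 1 of 25 rats, marker shape is the slide, lines are column means). Jun lies at -0.31 and -0.32 on average in columns 1 and 2 and at 0.30 and 0.39 in columns 3 and 4, while Dusp1 stays within 0.07 of 0 on average.

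Members were also compared with each other across the 25 rats after removal of group means. Of 36 pairs, 25 had a positive Pearson r and 4 passed a permutation test of r (rats shuffled within groups, Benjamini-Hochberg over the 36 pairs). Junb and Ier2 varied together most (r = 0.758, p = 4.20e-04, adjusted p = 0.0149; rho = 0.598, p = 0.00569, adjusted p = 0.0684), with r = 0.674 without the 2 rats farthest from the median of Junb, and 0.617, 0.792 and 0.553 within slides 1, 2 and 3. Dusp1 and Egr1 followed (r = 0.653, p = 8.30e-04, adjusted p = 0.0149; rho = 0.759, p = 8.00e-05, adjusted p = 0.00288), with r = 0.642 without the 2 farthest rats, and 0.456, 0.929 and 0.774 within slides 1, 2 and 3. Each slide held at most 8 rats.

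Jun and Egr1 had r = 0.614 (p = 0.00486, adjusted p = 0.0437; rho = 0.558, p = 0.0133, adjusted p = 0.0954) and r = 0.581 without the 2 farthest rats, and 0.764, 0.960 and -0.006 within slides 1, 2 and 3. Fos and Junb had r = 0.294 (p = 0.00340, adjusted p = 0.0408; rho = 0.483, p = 0.00570, adjusted p = 0.0684), and r = 0.592 without NMBA+Alpha-T rats 4 and 5. Fos and Atf3 had r = 0.669, which did not pass (p = 0.0864, adjusted p = 0.311; rho = 0.600, p = 0.0105, adjusted p = 0.0941), and r = 0.107 without NMBA+Alpha-T rats 4 and 5, the 2 farthest from the median of Fos. Within slides 1, 2 and 3 it was 0.727, 0.660 and 0.675, and neither of the 2 rats lies on slides 2 and 3. The number of pairs past the test was 0 with quantile normalization, 1 with normexp background correction and 0 with slide means also removed. With array column means also removed it was 4: Dusp1 with Egr1 (adjusted p = 7.20e-04), Ier3 with Myc (0.0162), Junb with Ier2 (0.0282) and Fos with Atf3 (0.0282). None of these relations passed under every setting; members on 1 array share its scaling, labelling and position.

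Of all genes tested, those most like Dusp1 by Pearson r over the 25 arrays, with group means removed, were Rgs18 (0.789), Plpbp (0.761), Fli1 (0.740), C15h14orf93 (0.731) and Cytip (0.718). Those most like Fos were Sccpdh (0.745), Pex6 (0.735), Gins2 (0.732), Gtf2e2 (0.716) and Cep78 (0.699). Without NMBA+Alpha-T rats 4 and 5 the values for Dusp1 lay between 0.701 and 0.775. Those for Fos were 0.453 for Sccpdh, 0.558 for Pex6, 0.780 for Gins2, 0.768 for Gtf2e2 and 0.459 for Cep78, so 3 were lower and 2 higher than with all rats. No test attaches to genes picked as the top of such an order.

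Other immediate early transcription factors were read from a list of 27, of which 26 were tested. In NMBA against Control, where 1.55% of all genes passed, 1 was higher, the AP-1 subunit Fosl1 (1.93 ± 0.37 log2, adjusted p = 0.00664), and the median was 0.10, against 0.05 over all genes. Fosl1 was also higher than Control in NMBA+Alpha-T (1.56 ± 0.37, adjusted p = 0.0494) and NMBA+Gamma enriched-T (1.62 ± 0.37, adjusted p = 0.0450), and its value was 1.49 in NMBA+Delta-T (adjusted p = 0.103). Its call in NMBA+Alpha-T ended without rats 4 and 5 (1.05, adjusted p = 0.322). Ier5l, related to Ier2, was lower than NMBA in all tocopherol groups: -0.66 ± 0.19 in NMBA+Alpha-T (adjusted p = 0.0496), -0.80 ± 0.19 in NMBA+Delta-T (adjusted p = 0.0297) and -0.84 ± 0.19 in NMBA+Gamma enriched-T (adjusted p = 0.00873). The first of these ended without NMBA+Alpha-T rats 4 and 5 (-0.45, adjusted p = 0.273).

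In NMBA+Gamma enriched-T against NMBA, 3 of the 26 were lower and 0 higher, where 909 of all 12343 genes were lower, a share near that of the list. The 3 were Ier5l, the AP-1 subunit Jund (-0.70 ± 0.18, adjusted p = 0.0201) and Egr3 (-1.01 ± 0.30, adjusted p = 0.0395), a relative of Egr1; the list's median was -0.12, against -0.10 over all genes. Nr4a1, an orphan nuclear receptor, had 0.80 ± 0.35 in NMBA+Alpha-T against NMBA (adjusted p = 0.216). Egr2, Ier5, Fosl2 and Klf4 passed in none of the 10 comparisons, with smallest adjusted p of 0.525, 0.335, 0.197 and 0.906.

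Of 28 other immediate early signalling genes, all tested, Trib1, a pseudokinase that guides protein degradation, was higher than NMBA in every tocopherol group. The differences were 1.75 ± 0.23 log2 in NMBA+Alpha-T (adjusted p = 2.96e-04), 0.84 ± 0.23 in NMBA+Delta-T (adjusted p = 0.0476) and 1.03 ± 0.23 in NMBA+Gamma enriched-T (adjusted p = 0.00746). Trib1 was well above background on 3 of 5 NMBA arrays. In NMBA+Alpha-T against NMBA, 3 of the 28 were higher and 1 lower: Trib1, the small GTPase Rasd1 (1.59 ± 0.30, adjusted p = 0.00723), the growth-arrest gene Gadd45g (1.02 ± 0.22, adjusted p = 0.0140) and, lower, the cytokine-signalling inhibitor Socs3 (-1.66 ± 0.32, adjusted p = 0.00661). In that comparison 3.82% of all genes tested passed, and the list's median was -0.07, against -0.03 over all genes.

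In NMBA+Delta-T against NMBA, where 2.49% of all genes passed, 2 of the 28 were higher, Trib1 and Rasd1 (1.19 ± 0.30, adjusted p = 0.0402). In NMBA+Gamma enriched-T against NMBA, 2 were higher, Trib1 and Ifrd1 (0.73 ± 0.20, adjusted p = 0.0254), and 1 lower, the clock gene Per1 (-0.83 ± 0.23, adjusted p = 0.0234). Of all genes 8.95% passed there, a share near that of the list. Per1 was well above background on only 1 of 5 arrays of either group, so its difference is mostly between levels not well above background. In NMBA against Control, where 1.55% of all genes passed, 1 of the list did, the antiproliferative gene Btg2 (0.69 ± 0.15, adjusted p = 0.0173). NMBA+Gamma enriched-T against NMBA+Alpha-T gave 1 higher, Socs3 (1.30 ± 0.32, adjusted p = 0.0354), and 4 lower, among them the synaptic gene Arc (-1.44 ± 0.28, adjusted p = 0.0147), Gadd45g (-1.06 ± 0.22, adjusted p = 0.0179) and Rasd1 (-1.38 ± 0.30, adjusted p = 0.0218), so that Gadd45g and Rasd1 went the same way as Dusp1 in that comparison and in NMBA+Alpha-T against NMBA. These comparisons share the NMBA+Alpha-T rats, and 1.62% and 3.82% of all genes passed in them, in the order named. Zfp36, which destabilises immediate early messages, passed in none of the 10 comparisons (smallest adjusted p = 0.444).

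Among relatives of Dusp1, 11 of 14 listed MAP kinase phosphatases and feedback inhibitors were tested. Lower in NMBA+Gamma enriched-T than in NMBA was the phosphatase Dusp2 (-1.46 ± 0.41, adjusted p = 0.0287; well above background on 3 of 5 and 4 of 5 arrays), in a comparison where the list's median was -0.29 log2. Of all genes tested 8.95% passed there, a share near 1 of 11. None of the 11 passed in NMBA against Control, NMBA+Alpha-T against NMBA or NMBA+Delta-T against NMBA (0 each by limma, with 1, 3 and 3 at an unadjusted p under 0.05). Of all genes 1.55%, 3.82% and 2.49% passed in these comparisons. Dusp5 stood nearest in NMBA+Alpha-T against NMBA (-0.33 ± 0.10, adjusted p = 0.0769), opposite in sign to Dusp1, and Dusp6 had -0.12 ± 0.21 there (adjusted p = 0.820).

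Of the MAP kinase cascade and its nuclear targets, 21 of 25 were tested. Map2k7, a kinase that activates JNK, was lower than NMBA in NMBA+Alpha-T (-1.01 ± 0.28, adjusted p = 0.0410) and NMBA+Gamma enriched-T (-1.08 ± 0.28, adjusted p = 0.0170), and had -0.82 ± 0.28 in NMBA+Delta-T (adjusted p = 0.0932); it was well above background on 18 of 25 arrays. No other gene of this list passed in these comparisons, where 3.82%, 8.95% and 2.49% of all genes passed, in the order named. Of 15 tested bZIP and Myc dimer partners, and of 10 tested heat shock genes, 0 passed in any of the 10 comparisons by limma, with at most 3 and 4 at an unadjusted p under 0.05 in a comparison. Between 0% and 8.95% of all genes passed per comparison, so 0 calls in lists this short do not set them apart. Hspa1a had no named probe and was not analysed here. The largest heat shock value in NMBA+Alpha-T against NMBA was Hsph1 (0.54 ± 0.20, adjusted p = 0.138).

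Dusp1 is also a glucocorticoid-induced gene, so a list of 11 tested genes of that kind was read beside it. Zbtb16, a zinc-finger repressor, was lower in NMBA than in Control (-2.33 ± 0.42, adjusted p = 0.00448), as was the chaperone gene Fkbp5 (-1.58 ± 0.36, adjusted p = 0.0209), and the list's median was -0.37. Both were lower than Control in NMBA+Alpha-T as well, by -1.94 ± 0.42 (adjusted p = 0.0311) and -1.79 ± 0.36 (adjusted p = 0.0196). In the comparisons where Dusp1 was higher, the list's median was 0.11 in NMBA+Alpha-T against Control and 0.39 in NMBA+Alpha-T against NMBA, with 7 of 11 differences above 0 in both. The rest of the list lay below 0, so the list did not move in 1 direction. Zbtb16 was higher than NMBA in NMBA+Delta-T (1.99 ± 0.42, adjusted p = 0.0254) and NMBA+Gamma enriched-T (2.13 ± 0.42, adjusted p = 0.00471). Pdk4, a metabolic kinase, was the member of this list that was higher in NMBA+Alpha-T than in NMBA (1.99 ± 0.52, adjusted p = 0.0331). Tsc22d3 passed in none of the 10 comparisons (smallest adjusted p = 0.400). Of all genes tested, 1.55% passed in NMBA against Control and 0.818% in NMBA+Alpha-T against Control. Against NMBA, 3.82% passed in NMBA+Alpha-T, 2.49% in NMBA+Delta-T and 8.95% in NMBA+Gamma enriched-T.

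These calls outside the 10 members have limits like those of Dusp1, except that NMBA and Control arrays lay mostly together on slide 3. Of 69 calls over all lists, marker genes included, 3 remained with slide as a fixed block, all in NMBA against Control. Over all genes, that block left 62 calls in NMBA against Control and 1 in NMBA+Alpha-T against NMBA. Without NMBA+Alpha-T rats 4 and 5, 51 of the 69 remained. The 69 include comparisons without that group, so 51 does not give the loss among its own calls. Over all genes, leaving out both rats took NMBA+Alpha-T against NMBA from 471 calls to 99. NMBA against Control went from 191 to 230. Among the genes named above, that alternative ended the calls of Map2k7 (-1.09, adjusted p = 0.0871) and Pdk4 (1.44, adjusted p = 0.205) against NMBA, those of Fkbp5 (-1.89, adjusted p = 0.0678) and Zbtb16 (-1.78, adjusted p = 0.106) against Control, and those of Socs3 (1.57, adjusted p = 0.0523) and Rasd1 (-1.42, adjusted p = 0.0594) between NMBA+Gamma enriched-T and NMBA+Alpha-T. With array column as a block 67 remained. With slide as a random block 69 remained, but its slide correlation of -0.031 took out no difference between slides.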

How the data were processed

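Total RNA from esophageal epithelium of 25 male F344 rats (5 groups of 5) was hybridised to Agilent arrays in 1 colour (Cy3) after TRIzol extraction and linear amplification, per the labels. The deposited array files hold fluorescence intensity, background-subtracted within each array and not scaled between arrays; the file headers name Feature Extraction 11.5.1.1 and the submitters' processing notes 10.7. The deposited value table is on a log2 scale, scaled near each array's 75th percentile. From the intensities, flagged spots were dropped, spots of a probe averaged, and the array's 75th percentile subtracted. Of 30367 probes, 18355 had 1 gene name through RefSeq accessions (GRCr8; names only) and 12012 none. Probes well above background on at least 5 arrays were kept, 1 per gene, the brightest. Each member has 1 named probe, on 1 to 10 spots, whose median SD was 0.08 to 0.33 log2.

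Group means were fitted on 25 arrays with limma 3.58.1 (R 4.3.3; 20 residual and 3.09 prior degrees of freedom), and 10 contrasts were tested two-sided, Benjamini-Hochberg adjusted over 12343 genes at 0.05. Intervals are 95%. Correlations used 100000 permutations (numpy, scipy). The arrays' number limits precision. The p-values of the fit measure differences against the spread within groups, each of which lay wholly or mostly on 1 slide. That spread holds differences between array columns and little of any difference between slides. The fit was tested on simulated data. The members and lists were chosen with earlier results of these data known. Named genes are all members, up to 4 called genes of each list per comparison (or up to 2 values where none passed), 12 fixed genes, and the 5 most like Dusp1 and Fos. Alternatives were quantile, normexp, the deposited table, filters, slide, array column, rat number and left-out rats. Normexp used median spot signals, as the files used here hold no mean signal. No protein table was used. Columns of other series numbered 0. Rat numbers did not pair the samples: over 50 same-numbered pairs, the correlation of deviations ran from -0.58 to 0.53, with a median of -0.05.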

Additional observations from a re-analysis of the deposited data

Results flagged for a closer look

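Dixon's test on each tested member in each group of 5 rats (45 groups, of which chance alone would single out about 1 in 20) marked 3 rats as far from the rest of their group. Fos in NMBA+Delta-T rat 3 was at -2.73 log2, while the nearest rat of that group was at -2.12. Junb in NMBA+Alpha-T rat 1 was at 0.766, with the nearest rat at 0.887. Ier3 in NMBA+Alpha-T rat 3 was at 0.925, with the nearest at 0.596. The high Fos values of NMBA+Alpha-T rats 4 and 5 were not marked, since each is the other's neighbour. No explanation was tested for these values.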

How the results depend on the processing

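Of 2051 recomputed member differences, 2013 stayed on the same side of the threshold, 21 lost the call, 17 gained it and 0 turned sign while called. Among the 2013, 143 changed sign with neither value past the test. In NMBA+Alpha-T against NMBA (1 member called), the count was 0 with normexp, with slide as a fixed block, in a fit of only the 2 groups and without NMBA+Alpha-T rats 4 and 5, 2 (Dusp1 and Ier2) with array column, and 0 to 1 leaving out 1 rat. In NMBA+Alpha-T against Control (1), it was 0 with slide as a fixed block, with only the 2 groups and without rats 4 and 5, and 0 to 1 leaving out 1 rat. In NMBA+Gamma enriched-T against NMBA+Alpha-T (1), it was 0 with slide as a fixed block and without rats 4 and 5, and 1 to 2 leaving out 1 rat. In NMBA+Delta-T against NMBA (0), it was 1 with normexp, the deposited table and the percentile over probes, 2 with slide as a random block and with array column, and 0 to 2 leaving out 1 rat. In NMBA+Gamma enriched-T against NMBA (0), it was 1 without the filter on dim probes and with slide as a random block, 2 with array column, and 0 to 1 leaving out 1 rat. In the other comparisons it stayed 0. Pairs of members past the correlation test (4) were 0 with quantile normalization, 1 with normexp, 0 with slide means removed and 4 with array column means removed, of which 2 (Dusp1 with Egr1 and Junb with Ier2) were among the first 4. With the rat number as a replicate block, Dusp1 in NMBA+Alpha-T against NMBA stayed 0.77 (adjusted p = 0.0275), and all counts stayed as reported. The causes of these changes were not tested. The alternatives on array column, rats 4 and 5 and the percentile over probes were chosen after seeing the data. Signal over background limits Egr1 and Fosb.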
